A study of Mus musculus with 2 samples.

Results

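The genes examined here encode the proteins of the cytosolic ribosome, the particle that translates nearly all messages of the cell. They were chosen by name: every non-control probe was taken whose gene symbol in the array files is that of a large-subunit protein (Rpl and a number, or Rplp0, Rplp1 and Rplp2) or of a small-subunit protein (Rps and a number, or Rpsa). The rule found 81 genes, 49 of the large and 32 of the small subunit, with 135 probes and 144 spots on each array, out of 27745 gene names and 41174 probes in all. Primary embryonic fibroblasts (MEFs, connective tissue cells grown from mouse embryos) of the strain C57BL/6J were compared, either LATS2-/- (KO) or LATS2+/+ (WT), without treatment. The genotype fields of the labels spell the gene LAT2 and the titles LATS2, a kinase of the Hippo pathway. The age of the embryos, the number of embryos behind each RNA and the part of the gene that was deleted are not stated in the labels. RNA of each genotype was labelled with Cy5 (red) or Cy3 (green) and both were hybridised together, once with the KO RNA in Cy5 and once with the KO RNA in Cy3. The 2 arrays with exchanged dyes were taken to hold 1 sample of each genotype, which the labels do not state. No difference below has a replicate check. If both arrays hold the same RNAs, the spread between them covers hybridisation and dye error only.

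A ribosome is built from a small subunit, which holds the message and reads its codons, and a large subunit, which joins the amino acids. Most ribosomal proteins are needed in equal numbers, their messages are among the most abundant in growing cells, and many of these messages begin with a C followed by a run of pyrimidines, the terminal oligopyrimidine (TOP) tract. Through this tract the kinase mTOR and the RNA-binding protein Larp1 set how actively the messages are translated, whereas an array measures only how much message there is. Ribosomal protein genes also have many processed copies (pseudogenes) in mouse chromosomes, and signal shared with such copies was not tested.

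Many of these messages are known to begin with the tract, and it is printed here to show the start of some of the genes whose values are given later. The windows run from 10 bases before to 19 bases after a start base that RefSeq annotates (GRCm38.p6), 5′ to 3′ on the gene's strand. Capitals mark the tract where the message begins with C and at least 4 further C or T. Rpl35a and Rps21 also have annotated starts without the tract, which are not printed. Rps13, the last line, has no such tract at its annotated start.
Rpl35, chr2:39005112-39005141, minus strand: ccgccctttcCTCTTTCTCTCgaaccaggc
Rps10, chr17:27635225-27635254, minus strand: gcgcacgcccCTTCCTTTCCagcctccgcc
Rps21, chr2:180257369-180257398, plus strand: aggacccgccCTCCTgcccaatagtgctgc
Rpl35a, chr16:33056472-33056501, plus strand: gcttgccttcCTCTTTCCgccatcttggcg
Rplp2, chr7:141447641-141447670, plus strand: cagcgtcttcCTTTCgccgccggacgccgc
Rps27, chr3:90213629-90213658, minus strand: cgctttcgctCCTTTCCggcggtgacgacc
Rps6, chr4:86857348-86857377, minus strand: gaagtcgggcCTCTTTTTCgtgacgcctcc
Rps13, chr7:116334171-116334200, minus strand: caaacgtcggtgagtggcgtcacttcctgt

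RefSeq windows were found for 61 of the 81 genes. Of these, 13 (21.3%) had an annotated start with the tract exactly at the first base, against 3.01% of 27025 genes with a window. Searched on the gene's strand anywhere from 10 bases before to 10 bases after the start, a C with at least 4 further pyrimidines was found in 37 of the 61 genes (60.7%), against 34.4% of all genes. With spots kept that the scanner software flagged as outliers, the 13 genes with the exact tract had a median log2 ratio of KO over WT of 0.17, between -0.27 and 0.46, and the 48 others with a window one of 0.16, between -0.48 and 0.69. The ranges overlapped over most of their length. The 48 others include genes with a tract near an annotated start but not exactly at it. The split thus follows the annotated base and cannot separate messages with the tract from those without.

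Ribosomal protein probes were among the brightest on the arrays. Their median red signal was 54181 units on the array with KO RNA in Cy5 and 53442 on the other, where the median of all other probes was 95.8 and 97.4 units. On each array the red signal of 105 of the 144 member spots (72.9%) came from a second scan at low gain that Feature Extraction scaled up, against 2.72% and 2.66% of all other spots. No spot was saturated. Feature Extraction flagged 57 of the 144 member spots (39.6%) as outliers on the array with KO RNA in Cy5 and 59 (41.0%) on the other, nearly all for uneven pixels (56 and 58 spots), against 0.770% and 0.738% of other spots. All of these flagged member spots were among those read from the low-gain scan. Leaving flagged spots out left 66 of the 135 probes, and 47 of the 81 genes, with a value on both arrays. For 24 of those 47 genes the brightest probe was lost and a dimmer one stands for the gene. The remaining 34 genes have a value on both arrays only if flagged spots are kept: 11 of them had an unflagged value on 1 array, and 23 had flagged spots only.

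The Lats2 probes do not bear out the labels. All 4 were well above background in both RNAs on both arrays, and 3 of them read higher in the RNA labelled KO, with log2 ratios of 0.56, 0.56 and 0.63, while the fourth read lower, at -0.35. Which probes lie within the deleted part was not tested. The RNAs are therefore called by their labels, and every direction below rests on them. Of the 10 fibroblast markers all were well above background in both RNAs. With flagged spots kept, 8 of them (Postn, Col1a1, Col1a2, Vim, Col3a1, Thy1, Pdgfra and Dcn) were lower and Fn1 higher in the RNA labelled KO beyond the spread between arrays, while without those spots the median of the markers was -0.43 and Col1a2 was at 0.00. The 5 endothelial and 4 germ cell markers stayed under the well-above-background flag in either RNA, as did 4 of the 5 epithelial markers measured. Krt19, the other one, was at 2.12. Well above background in both RNAs were also 1 of the 4 erythroid, 2 of the 5 neural and 1 of the 4 muscle markers. None of these differed beyond the spread. Of the 5 blood and macrophage markers, Cd14 was at -1.05, Csf1r at -0.05 and Cd68 at 0.14, while Emr1 and Ptprc, which defines blood cells, were not well above background. Whether other cells have a part in the values below was not tested.

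Levels of ribosomal protein messages differed little between the RNAs. A ratio here is a share of each RNA, and fewer cells of a type and less message per cell cannot be told apart. Over the 47 genes with unflagged values, the median log2 ratio of KO over WT was 0.05, or 104% of the WT level. The ratios ran from -0.87 (Rpl11) to 0.59 (Rpl22) with an SD of 0.26 across genes. Both ends come from dimmer probes that stand in for a flagged brightest one. Across all 14723 genes well above background in both RNAs the median was -0.01 and the SD 0.56. Of the 47 ribosomal protein genes, 45 lay within 0.5 log2 units of 0 (95.7%), as did 77.1% of all genes. Including flagged spots, the 81 genes had a median of 0.11, or 108% of the WT level, between -0.48 and 0.69, and an SD of 0.24.

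None of the ribosomal protein genes differed 2-fold on each array. The count was 0 of 45 genes well above background in at least 1 RNA, in either direction, where 2.95% of 15877 genes were called higher and 2.61% lower. Keeping flagged spots left it at 0 of 80 genes, where 2.95% of 16050 genes were called higher and 2.58% lower. limma across both arrays called 0 members at an adjusted p under 0.05 with a mean of at least 2-fold, and at an unadjusted p under 0.05 with no fold limit it marked 11 as higher and 7 as lower, where the shares of 14723 genes so marked were 28.0% and 30.2%. Those p-values compare the hybridised RNAs and not the genotypes.

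A smaller difference was counted when both arrays lay on the same side of 0 by more than 0.13 log2 units, the SD of one probe's ratio across arrays over 22357 probes. By this rule 10 of 44 ribosomal protein genes (22.7%) were higher in the RNA labelled KO, against 26.3% of 14723 genes, and 7 (15.9%) were lower, against 28.6%. Once flagged spots were kept, 16 of 80 (20.0%) were higher, against 26.1% of 14899 genes, and 5 (6.25%) were lower, against 28.4%. Rpl31, Rpl6, Rpl7l1, Rps24 and Rps3a were counted as higher in both readings, and Rpl21, Rpl35a and Rps13 as lower in both. At a stricter limit of 0.32 log2 units on each array 1 of the 44 genes was higher (Rpl22), against 15.0% of all genes, and 2 were lower (Rpl11 and Rpl13), against 16.2%. Each of these genes stands on a dimmer probe because its brightest one was flagged. With flagged spots kept, the brightest probe gave a mean of -0.03 for Rpl22, 0.39 for Rpl11 and 0.03 for Rpl13. The shares of members were below the background in all of these counts, though by little for the 10 genes counted as higher. The rule needs both arrays to pass, and the arrays differed more in the members than in all genes, as given below. Whether the lower shares follow from that was not tested.

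**Figure D1:**
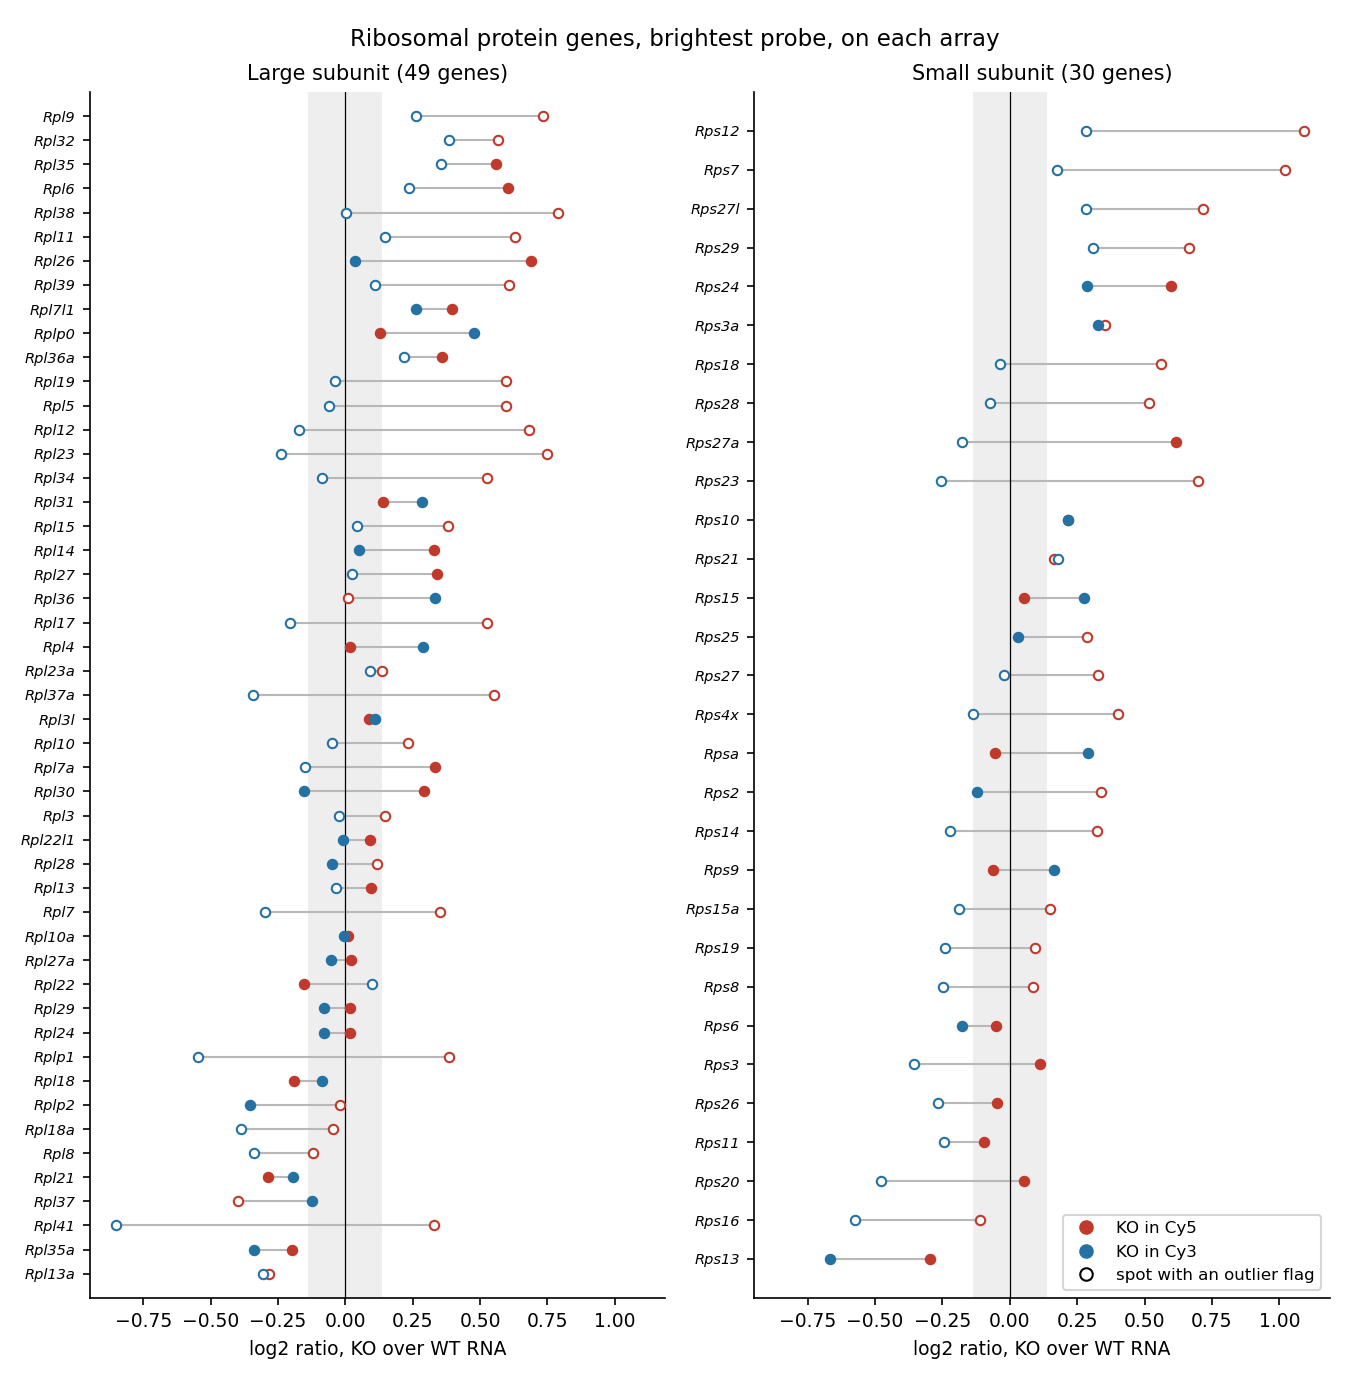
Log2 ratio of KO over WT for the brightest probe of 79 of the ribosomal protein genes, large subunit on the left and small subunit on the right, ordered by the mean of both arrays. Red points are the array with KO RNA in Cy5 and blue points the array with KO RNA in Cy3, open points are spots with an outlier flag, and the grey band is the SD of one probe's ratio across arrays (0.13 on each side of 0). Red lies to the right of blue in 66 genes, and Rps13 is the lowest gene of all at -0.48.

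The arrays differed in the ratios of these bright genes. With flagged spots kept, the ratio was higher on the array with KO RNA in Cy5 in 68 of the 81 genes (84.0%), the median being 0.23 there and -0.05 on the array with KO RNA in Cy3. Across all genes well above background the arrays' medians were 0.01 and -0.03, and 59.6% of genes were higher on the first. A single member probe had an SD between arrays of 0.24, against 0.14 for all genes and 0.20 for the 815 other genes read from the low-gain scan in red. The 44 of the 81 genes with the same sign on both arrays made up 54.3%, where the share over all genes was 81.3%, and 611 of those 815 genes had the same sign. With flagged spots left out, the members' medians were 0.08 and 0.02, and their SD between arrays was 0.16 over all 47. The 24 members then read from the low-gain scan in red had an SD of 0.18, against 0.16 for the 630 other genes so read. The correlation of the arrays, over genes that are not independent of one another, was a Pearson's r of 0.32 over the 81 members and 0.69 over the 47 with unflagged values, against 0.94 over all genes in both readings. A dye effect of equal size on both arrays cancels in their mean but remains in each array's value.

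Without the intensity-dependent normalisation the arrays mostly lay on opposite sides of 0, in the ribosomal protein genes as in others. With each array centred on its median instead of by loess, the 47 genes had medians of 1.13 and -0.78 on the arrays, only 2 of them had the same sign on both, and the counts beyond the spread were 0 in each direction. The mean of both arrays was then 0.18 at the median, so the family's median stayed above 0, while that of all genes stayed at 0.00. Across all 14723 genes the arrays' medians were then 0.64 and -0.64, and 3202 genes had the same sign on both.

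**Figure D2:**
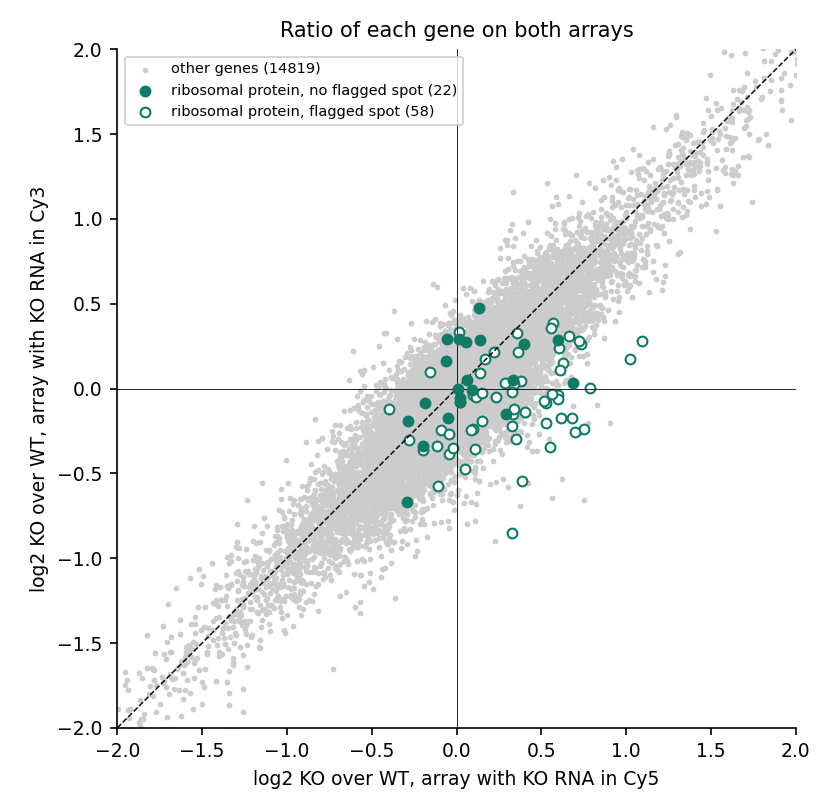
Log2 ratio of KO over WT on the array with KO RNA in Cy5 (horizontal axis) and on the array with KO RNA in Cy3 (vertical axis), one point per gene well above background in both RNAs, brightest probe, flagged spots kept. Ribosomal proteins are green, filled where neither array flagged the probe (22 genes) and open where one did (58 genes); the dashed line marks equal ratios and 203 of 14819 other genes lie outside the axes. The green points lie near 0 and mostly below the dashed line.

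**Figure D3:**
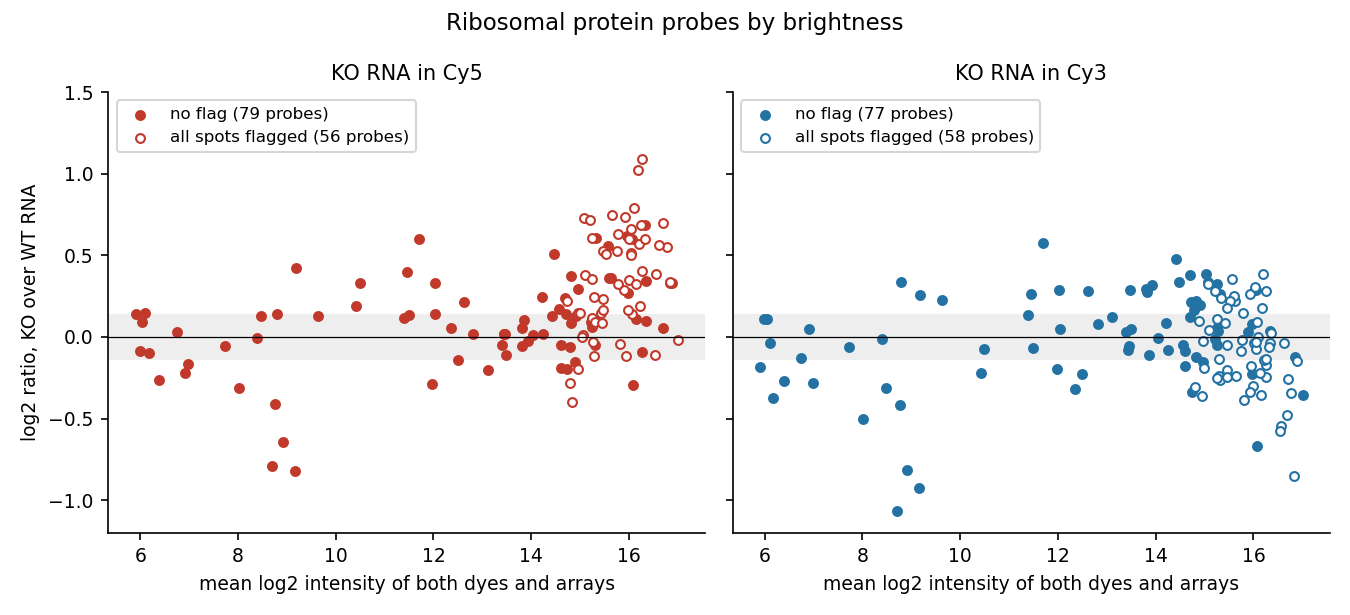
Log2 ratio of KO over WT of each of the 135 ribosomal protein probes against its mean log2 intensity, on the array with KO RNA in Cy5 (left) and in Cy3 (right), open points being probes with all spots flagged and the grey band the SD of one probe's ratio across arrays. Flagged probes crowd at the bright end, where the left array reaches 1.09 and the right array reaches -0.85.

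Large-subunit genes had a median of 0.08 over 28 genes with unflagged values and 0.10 over all 49 genes with flagged spots kept. Rpl6, a protein of the large subunit's surface that also takes part in DNA damage signalling, had log2 ratios of 0.54 on the array with KO RNA in Cy5 and 0.30 on the array with KO RNA in Cy3, a mean of 0.42 or 1.34-fold. Its probes gave 0.42 each, one of them unflagged. Rpl31, which lies near the exit of the nascent chain, had 0.14 and 0.28. Rpl19 had 0.27 and 0.34 from its unflagged probe, and Rpl23 0.22 and 0.27. For both of these genes the brightest probe was flagged and its arrays disagreed, at 0.60 and -0.04 for Rpl19 and at 0.75 and -0.24 for Rpl23. Rpl7a, whose own unflagged values were 0.14 and 0.21, likewise gave 0.33 and -0.15 from its brightest probe.

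Rpl26, which binds the p53 message and raises its translation, had an unflagged value of 0.74 on one array and -0.03 on the other, so that the arrays disagreed by more than any single-probe spread given here. Rpl14 had 0.33 and 0.04, Rpl30 0.33 and -0.20, and Rpl4, which lines the tunnel of the nascent chain, 0.03 and 0.27. None of these met the rule on both arrays. Rpl27a had 0.04 and -0.07, Rpl24 0.04 and -0.11 and Rpl10a 0.03 and -0.03. Rpl29 had 0.04 and -0.10 from its brightest probe, and another of its probes gave -0.13 and -0.24.

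On the lower side, Rpl35a had unflagged values of -0.17 and -0.38, a mean of -0.27. Mutations of its human counterpart occur in Diamond-Blackfan anaemia, a failure of red cell production caused by loss of 1 copy of a ribosomal protein gene. Rpl37 had -0.17 and -0.29 from its unflagged probe, a dim one with a log2 intensity of 6.98, and -0.40 and -0.12 from its brightest, flagged one. Rpl18 had -0.16 and -0.12, the second just inside the spread. Rpl13a, known for a role outside the ribosome in silencing inflammatory messages, had only flagged spots, at -0.28 and -0.31, which differed little between the dyes.

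Several large-subunit genes had a flagged spot on at least 1 array and so no unflagged value on both. With flagged spots kept, Rpl9 stood at 0.73 and 0.26, Rpl32 at 0.57 and 0.39 and Rpl35 at 0.56 and 0.35. Rpl38, needed for the translation of Hox messages in embryos, stood at 0.79 and 0.00. Rpl5, which binds the ribosome's smallest RNA together with Rpl11 and holds back Mdm2 when ribosome assembly fails, stood at 0.60 and -0.06, and Rpl41, the shortest of the proteins, at 0.33 and -0.85. The last 3 genes thus had a value on one array that the other did not repeat.

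The stalk of the large subunit recruits the translation factors and consists of Rplp0 with pairs of Rplp1 and Rplp2. The Rplp0 probe was printed 10 times on each array, and 9 spots on each were free of flags. They gave a mean log2 ratio of 0.16 (SD 0.03, n = 9 spots) with KO RNA in Cy5 and 0.44 (SD 0.02, n = 9 spots) with KO RNA in Cy3. The spots of one array ranged from 0.12 to 0.22 and those of the other from 0.41 to 0.46, so the gap between arrays was larger than the spread among spots of one array, and both means lay above 0. Over the arrays Rplp0 was at 0.30 or 1.23-fold. Rplp1 and Rplp2 had no unflagged value on both arrays. With flagged spots kept, Rplp1 stood at 0.38 and -0.55 and Rplp2 at -0.02 and -0.35, so no common direction of the stalk was seen.

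Small-subunit genes had a median of 0.01 over 19 genes with unflagged values and 0.13 over all 32 genes with flagged spots kept. Rps24, another gene mutated in Diamond-Blackfan anaemia, had unflagged values of 0.65 and 0.22 from its brightest probe, a mean of 0.44 or 1.35-fold. Its other probes, both dimmer and unflagged, gave means of -0.01 each, and with the mean over all its probes (0.14) Rps24 no longer met the rule. Rps3a had 0.41 and 0.16, and 0.35 and 0.33 from its brightest, flagged probe. Rps13 was the lowest, with -0.24 and -0.73 from a bright probe without a flag, a mean of -0.49 or 71.4% of the WT level. Both arrays placed it below 0, though they differed by more than the spread.

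Rps6, the target of S6 kinase and the usual readout of mTOR activity, had -0.02 and -0.21. Rpsa, which also serves as a laminin receptor at the cell surface, had -0.03 and 0.27. Rps3, at the entry of the message and a DNA repair protein, had -0.19 and 0.11 from its dimmer probe. With flagged spots kept, the brightest Rps3 probe gave 0.11 and -0.35. Rps15 had 0.08 and 0.25, and Rps9 -0.03 and 0.12. Rps20 had 0.13 and -0.31 from its dimmer probe, and 0.05 and -0.48 from its brightest with flagged spots kept. None of these 6 genes met the rule.

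Among the small-subunit genes without an unflagged value on both arrays, Rps12 with flagged spots kept stood at 1.09 and 0.28, the highest mean of all members at 0.69, and Rps7, which binds Mdm2, at 1.02 and 0.18. Rps29 stood at 0.66 and 0.31 and Rps10 at 0.22 and 0.21, of which the second spot was unflagged (0.17 by the main processing). Rps21, which did have an unflagged probe (0.12 and 0.18), stood at 0.17 and 0.18 from its brightest, flagged one. Rps16 stood at -0.11 and -0.58. Rps27a, made as a fusion with ubiquitin, stood at 0.62, from an unflagged spot (0.67 by the main processing), and -0.18. The high ratios of Rps12 and Rps7 came mainly from the array with KO RNA in Cy5.

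Some ribosomal proteins have close relatives, and some of these can take the place of the common form. Rpl7l1 had unflagged values of 0.40 and 0.26 from its brighter probe and 0.13 and 0.22 from the other. Rpl7 had -0.09 and 0.03 from its dimmest probe. With flagged spots kept, its brightest probe gave 0.35 and -0.30 and the remaining one 0.17 and -0.22. Rpl22l1 had 0.13 and -0.06, close to 0 on both arrays. Rps27l, a p53 target, stood at 0.72 and 0.28 and its common form Rps27 at 0.33 and -0.02, both from flagged spots on each array. Rpl3l, the form of skeletal and heart muscle, stayed under the well-above-background flag in both RNAs, and Rpl3 stood at 0.15 and -0.02 from flagged spots. The X-linked genes Rpl10, Rpl36a, Rpl39 and Rps4x had means of 0.09, 0.29, 0.36 and 0.13 with flagged spots kept. The unflagged probe of Rps4x gave -0.06, but it is dim, at a log2 intensity of 7.72 against 16.27 for the bright one, and has no genome position.

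Probes of one gene did not always return one ratio. Of 37 genes with several probes well above background, 6 had probes more than 0.5 log2 units apart with flagged spots kept, and the median range over the 37 was 0.10. Rpl11 differed most. Its bright probe, which spans an exon junction at chr4:135322046-135322368 in the files' NCBI36 (mm8) coordinates, gave 0.63 and 0.15 from flagged spots. Its dim probe, designed from a cDNA clone and lying at chr4:135322118-135322177 inside the gap that the bright probe bridges, gave -0.82 and -0.93. Both arrays placed the probes of Rpl11 on opposite sides of 0.

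The other 5 genes were Rpl27a, Rpl22, Rpl21, Rps25 and Rpl13. A clone-derived probe of Rpl27a (chr7:109311334-109311393) gave -0.65 and -0.82, where the bright probe gave 0.04 and -0.07 without a flag. A clone-derived probe of Rpl13 (chr8:125990880-125990939) gave -0.41 and -0.41, where the bright probes gave means of 0.03 and 0.12. The dim probe of Rps25 (chr9:44161159-44161218) gave -0.31 and -0.50, against 0.29 and 0.03 for the bright one with flagged spots kept. Only the first of these bright spots was flagged, and the second read -0.03 by the main processing. Rpl22, which also binds RNAs outside the ribosome, went the other way: its second probe (chr4:151177703-151177762) gave 0.60 and 0.57, and the bright probe -0.15 and 0.10. The probes of Rpl21 gave -0.29 and -0.19 (chr5:147143450-147143509) and 0.42 and 0.26 (chr5:147147040-147147099). In Rps13 both probes were below 0, the clone-derived one (chr7:116122744-116122807) at -0.79 and -1.07.

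**Figure D4:**
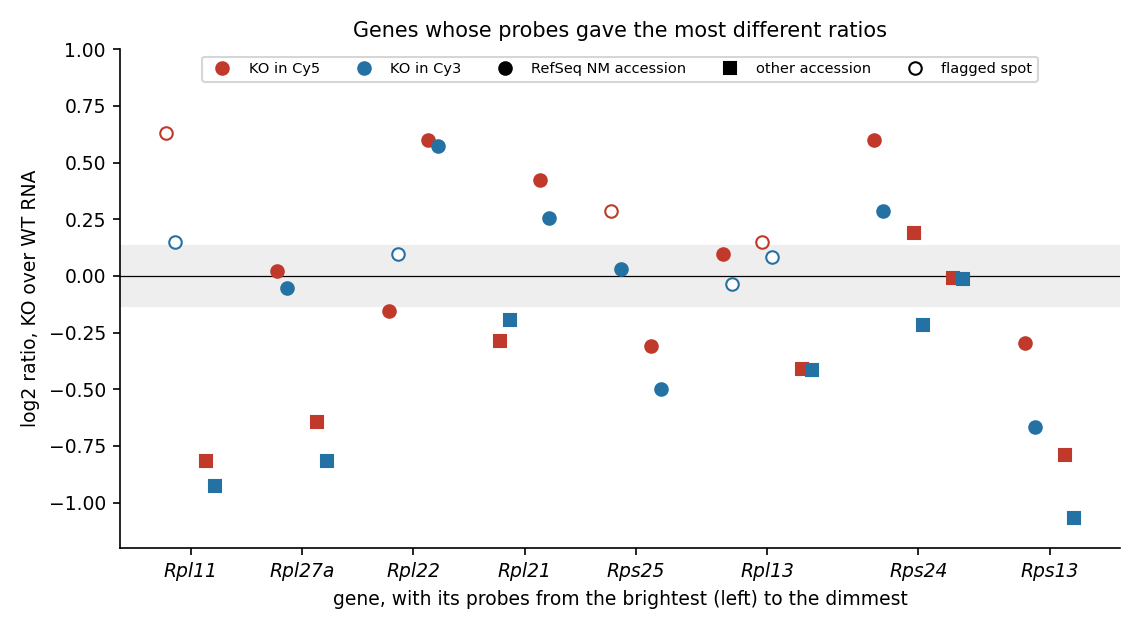
Log2 ratio of KO over WT of every probe well above background in the 8 genes with the widest range between their probes, ordered from the widest on the left, with each gene's probes from bright to dim. Red is the array with KO RNA in Cy5, blue the array with KO RNA in Cy3, circles are probes with a RefSeq message accession, squares are other accessions, open symbols are flagged spots and the grey band is the SD of one probe's ratio across arrays. The dim probe of Rpl11 lies at -0.82 and -0.93, and the squares of Rpl27a, Rpl13 and Rps13 lie below the circles of the same gene.

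The median ratio of member probes differed between RefSeq and other accessions. Brightness differed as well, so the accession and the brightness cannot be told apart, and probes of one gene are not independent. Flagged spots included, 112 probes well above background and designed from RefSeq messages had a median of 0.13, of which 7 were lower and 26 higher on both arrays beyond the spread, and of 16169 such probes of other genes 27.3% were lower and 27.1% higher. The 16 with other accessions had a median of -0.07, with 5 lower and 0 higher, and of 6359 such probes of other genes 27.0% were lower and 21.0% higher. Among these 16 the share lower was thus near that of other genes' probes, and among the 112 it was below. The 16 were also dimmer than the 112, at a median log2 intensity of 9.79 against 15.25. Of the 13 member probes with a log2 intensity under 10, 6 (46.2%) were lower and 2 (15.4%) higher, while of 14737 other probes as dim 25.3% were lower and 23.4% higher. Of the 115 brighter member probes, 6 (5.22%) were lower and 24 (20.9%) higher, while of 7791 other probes as bright 2403 (30.8%) were lower and 2262 higher. Rpl11 and Rpl13 owe their place among the genes counted as lower to such clone-derived probes, Rps25 and Rpl37 to their dim ones, and Rpl21 to a probe from a predicted message.

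Other genes of ribosome production were taken from lists of the processes that surround these proteins, with flagged spots kept and each gene well above background in both RNAs. The shares to read their counts against are those of all 14899 genes, of which 26.1% were higher and 28.4% lower. Ribosome biogenesis factors, which build and export the subunits, had a median of 0.27 over 38 genes, of which 21 (55.3%) were higher and 7 (18.4%) lower beyond the spread. Ftsj3 was at 0.73, Bxdc1 at 0.71 and Nol1, a methylase of ribosomal RNA, at 0.69, while Fbl, the methylase guided by small nucleolar RNAs, was at -0.28 and Noc2l at -0.28. Gnl2 had the lowest mean but did not meet the rule, with -0.10 and -0.54. The ribosomal proteins themselves had a median of 0.12 over 80 genes in this reading, with 16 higher and 5 lower. RNA polymerase I components and factors had a median of 0.01 over 10 genes, with 1 higher (Taf1b, 0.24) and 2 lower (Ubtf, -0.38, and Taf1c, -0.20). No comparison between the lists was tested.

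Mitochondrial ribosomal proteins, whose ribosome translates the messages of the mitochondrial genome, had a median of 0.09 over 75 genes, with 25 (33.3%) higher and 10 (13.3%) lower. One of them, Mrpl36, was at least 2-fold higher on each array, at a mean of 1.38, and Mrps6 was lowest, at -0.66. Other messages with a TOP tract had a median of -0.04 over 13 genes, with 2 higher (Eef1g, 0.60, and Eef1b2, 0.43, both subunits of the elongation factor that reloads Eef1a1) and 1 lower (Gas5, -0.28, a host of small nucleolar RNAs). Eef1a1 and Eef2, the elongation factors themselves, were at 0.07 and -0.25 and did not meet the rule. The genes of mTOR and S6 kinase control had a median of -0.08 over 15 genes, with 3 (20.0%) higher and 5 (33.3%) lower. Among them Tsc2, which restrains mTOR, was at 0.40, Myc, which drives ribosome production, at 0.36 and Larp1 at 0.16, whereas Akt1s1 was at -0.95, Eif4g1 at -0.51 and Eif4ebp1, an inhibitor of the cap-binding factor, at -0.35. Among further ribosomal genes outside the naming rule, Rpl36al was higher, at 0.49 and 0.41, while Fau and Gnb2l1 did not meet the rule.

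**Figure D5:**
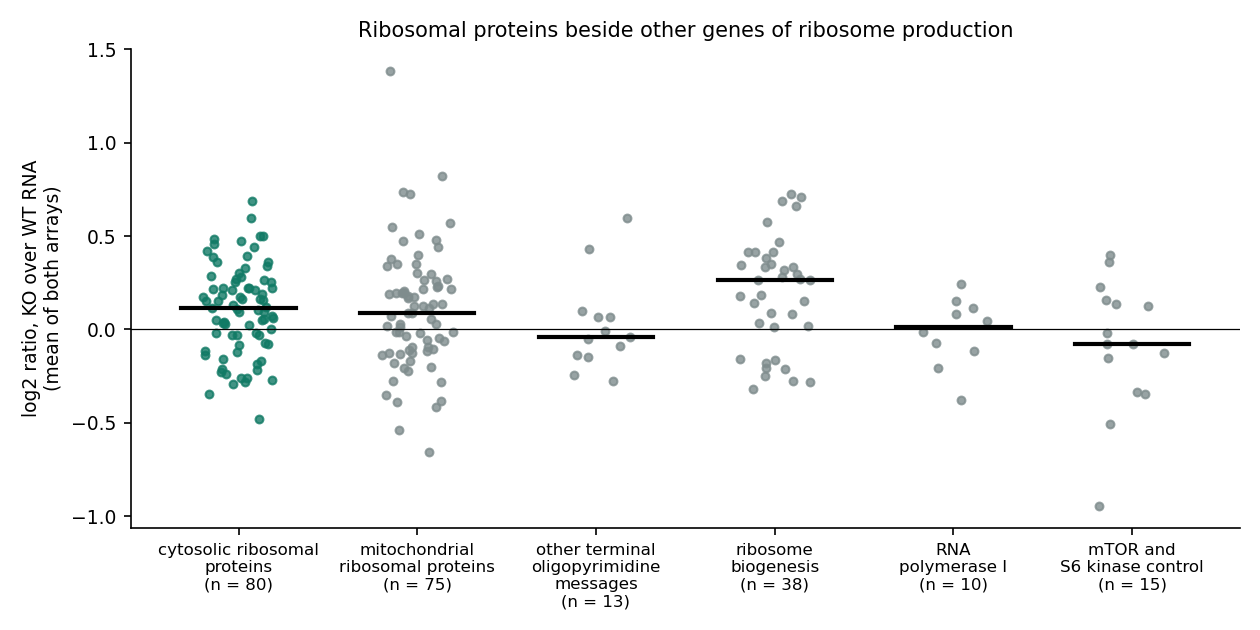
Mean log2 ratio of KO over WT over both arrays for each gene well above background in both RNAs, flagged spots kept, in the cytosolic ribosomal proteins (green) and 5 other lists (grey), with the number of genes under each name. Points are genes, spread sideways only for legibility, and black bars are medians. The bar of ribosome biogenesis lies highest at 0.27, and that of the cytosolic ribosomal proteins at 0.12.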

How the data were processed

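Per the labels, total RNA of LATS2+/+ and LATS2-/- MEFs was amplified from an oligo-dT primer and hybridised to Agilent whole mouse genome arrays. The authors deposited, per the file headers, the mean signal and local background of each spot as intensity from Agilent Feature Extraction 10.5.1.1, its log10 ratio of red over green, and a probe-level log2 table, which matched the processed signals with both arrays turned to KO over WT. Background correction (normexp with an offset of 50) used limma 3.58.1 under R 4.3.3, and intensities were normalised by loess within each array. Control spots (1639 of 45018) and spots with an outlier flag were left out, spots of a probe were averaged, and the array with KO RNA in Cy3 was turned. Where flagged spots were kept, they also entered the loess fit, so the values of unflagged spots shift in that reading too. The offset pulls dim ratios towards 0. The brightest probe with a value on both arrays stood for a gene. A flag for well above background had to be set in a share of at least 0.5 of a probe's spots. The dye-swapped pair was treated as technical (1 replicate). The members and lists were chosen with earlier results of these data known. Genes named are the 10 highest and 10 lowest, the stalk, the paralogues, genes whose probes disagree, the extremes of each list, and others picked after their values were seen. In a simulated dye swap, 100% of probes changed by 0.6 log2 units were found beyond the spread, as were 4.69% of unchanged ones. It had constant noise, the same dye effect on both arrays and no flagged spots, and its changed probes were brighter than the median. Changes under 0.6 log2 units and the members' wider spread between arrays were not simulated, so it gives no rate for them. Feature Extraction's ratio, the deposited table, other centring, backgrounds and offsets, flagged spots, probe choice, single arrays and limma were tried as alternatives. Some genes that belong to the members or lists are not reported by name here. Tables were handled with Python 3.11.15 and pandas 2.3.3.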

Additional observations from a re-analysis of the deposited data

How the results depend on the processing

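The median ratio of the family lay between 0.05 and 0.18 in every alternative that kept both arrays and changed 1 choice, was 0.27 with median centring and flagged spots kept together, and ran from -0.0050 to 0.10 with either array alone, over the genes with a value on that array. The median of the large subunit was 0.20 with median centring and from -0.032 to 0.15 with single arrays. The median of the small subunit was 0.13 with flagged spots kept, and ran from 0.01 to 0.02 with single arrays. The count of genes higher beyond the spread, 10 by the main processing, was 0 with median centring, 16 with flagged spots kept, 1 at a limit of 0.32 log2 units, and from 17 to 22 with single arrays, where 1 value has to pass instead of both. The count of genes lower, 7 by the main processing, was 0 with median centring, 2 at that limit, 4 with probes from RefSeq accessions only, and from 7 to 12 with single arrays. With flagged spots kept and the members' own spread between arrays (0.24) as the limit it was 2 of 80, where 20.0% of 14899 genes were lower. Shares over all genes are not given here for the RefSeq-only and single-array counts. The RefSeq-only probes, the members' own spread and the pairing of median centring with flagged spots were chosen after seeing the data. The count of genes 2-fold lower was 1 by the ratio of Feature Extraction and by the authors' table, the gene being Rps15a, whose dim unflagged probe had log2 ratios of -1.83 and -1.08 there and -0.26 and -0.27 by the main processing, while its bright probe gave 0.15 and -0.19 from flagged spots. The cause of these shifts was not tested. The other recomputed medians and counts (84 of 101) stayed within the spread or within 1.5 times the main count, among them the counts by limma and by the methods' t-test. Of 294 recomputed ratios of 25 single genes, 18 had the other sign. No paired analysis was made because the arrays were taken to hold a single sample per genotype, which the labels do not state. The number of arrays limits the precision of all values, and 34 genes have no unflagged value on both arrays.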
